A study of Mus musculus with 12 samples.

Results

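Genes of creatine and adenylate kinase energy transfer were followed in the hearts of infarcted and sham-operated mice given weekly prednisone or vehicle. The set was a list of 7 gene symbols, Ckm, Ckmt2, Ckb, Slc6a8, Gamt, Ak1 and Ak3, taken by name from the 33641 symbols of the expression table and summed over their transcripts. All 7 were found, and all 7 passed the filter on low values. The samples were pieces of heart muscle (myocardium). They came from 12 wild-type males of the C57BL/6 strain, labelled as about 16 weeks old, with 3 mice in each of 4 groups: sham surgery with vehicle, sham surgery with prednisone, myocardial infarction (MI) with vehicle, and MI with prednisone. Prednisone, a synthetic glucocorticoid, was injected into the abdomen weekly at lights-on, at a dose of 1 mg/kg, over 6 weeks that began 2 weeks after surgery. Each mouse gave its own sample 24 hours after its final dose, and the 12 mice share strain, sex and labelled age. The labels do not say how infarction was produced, nor which region of the heart was sampled.

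Heart muscle spends ATP at the myosin heads and ion pumps and makes most of it in mitochondria. Creatine kinases pass the phosphate group of ATP to creatine and back. The mitochondrial enzyme (Ckmt2) charges creatine beside the site of ATP export, and the cytosolic muscle enzyme (Ckm) recharges ADP where ATP is spent. The brain-type cytosolic enzyme (Ckb) is the main form of the embryonic heart and of many non-muscle cells. Creatine enters the cell through the transporter Slc6a8, and Gamt carries out the last step of its synthesis, which takes place mostly outside the heart. Adenylate kinases turn paired ADP molecules into ATP and AMP: Ak1 works in the cytosol, and Ak3, in the mitochondrial matrix, prefers GTP.

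The genes lie on 7 chromosomes of the mouse genome (GRCm38, the assembly also named mm10). Ckm (ENSMUSG00000030399.2) spans chr7:19404776-19422841 on the plus strand, Ckmt2 (ENSMUSG00000021622.3) chr13:91853387-91876885 on the minus strand, and Ckb (ENSMUSG00000001270.9) chr12:111669361-111672338 on the minus strand. Slc6a8 (ENSMUSG00000019558.14) spans chrX:73673150-73682502 on the plus strand and Gamt (ENSMUSG00000020150.13) chr10:80258151-80261012 on the minus strand. Ak1 (ENSMUSG00000026817.14) spans chr2:32621758-32635058 on the plus strand and Ak3 (ENSMUSG00000024782.7) chr19:29020833-29047961 on the minus strand.

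Transcripts of Slc6a8 and of Ckm that changed differently are described below. The sequences that tell those transcripts apart are shown first, from the GENCODE M21 transcripts, 5′ to 3′. Slc6a8-202, annotated as a target of nonsense-mediated decay, starts within exon 3 of the protein-coding Slc6a8-201 and keeps 9 bases at its first exon junction that Slc6a8-201 lacks, shown in capitals. The first 2 lines below cover that junction (chrX:73676889-73677330 and chrX:73676885-73677335). The next 2 lines cover the end of exon 9 (chrX:73680049-73680138 and chrX:73680042-73680146), where Slc6a8-201 has 15 more bases than Slc6a8-203, again in capitals.
Slc6a8-202: gagttctgggaGTGAGTCAGgaacaaagta
Slc6a8-201: catcgagttctgggagaacaaagtattgag
Slc6a8-201 exon 9: tgactgatGTGAGTGGGGGTAAGggtggaa
Slc6a8-203 exon 9: tccatggtgactgatggtggaatgtacgtc

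For Ckm, Ckm-203 holds a second exon of 212 bases with the start codon of the full-length enzyme, given in capitals in its first 30 coding bases (chr7:19414138-19414167). Ckm-201 joins exon 1 straight to the third exon of Ckm-203 (chr7:19411132-19414911), which in this annotation moves the start codon to 19414911 and shortens the coding sequence by 207 bases. Ckm-202 has 5 exons and no annotated coding sequence.
Ckm-203 start: ATGccgttcggcaacacccacaacaagttc
Ckm-201 junction: gagccagccagccaggtcaccccttcatca

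The 250 bases upstream of the RefSeq start of the creatine kinase genes Ckm, Ckmt2 and Ckb are shown as well. They cover chr7:19410844-19411093, chr13:91876886-91877135 and chr12:111672339-111672588 (RefSeq, GRCm38.p6). For Ckm this window lies inside the GENCODE span given above, which begins with Ckm-202 at 19404776, while the coding transcripts Ckm-203 and Ckm-201 begin at 19411025 and 19411063, inside the window. RefSeq promoters were matched for 6 of the 7 genes. Capitals mark matches, on either strand, to the E-box CANNTG and to TATANA, a form of the TATA box. In these 250 upstream bases, CANNTG was found 1 time for Ckm, 4 times for Ckmt2 and 0 times for Ckb. Gamt and Ak3 had 0 matches to CANNTG, and each Ak1 promoter had 1 to 3. CANNTG is present in the same upstream bases of 66.2% of all 32851 promoters. TATANA was found 2 times for Ckm, in overlapping positions on opposite strands, 1 time for Ckb and 0 times for Ckmt2, against 22.6% of all promoters. The letters TGTTCT, the core of a glucocorticoid receptor element, were found in the 250 upstream bases of none of the 9 promoters of these 6 genes and of 16.1% of all promoters.
Ckm: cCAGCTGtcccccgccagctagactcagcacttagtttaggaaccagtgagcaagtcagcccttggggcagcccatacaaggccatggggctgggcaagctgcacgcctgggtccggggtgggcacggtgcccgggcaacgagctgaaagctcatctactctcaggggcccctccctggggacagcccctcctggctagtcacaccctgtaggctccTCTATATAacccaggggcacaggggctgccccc
Ckmt2: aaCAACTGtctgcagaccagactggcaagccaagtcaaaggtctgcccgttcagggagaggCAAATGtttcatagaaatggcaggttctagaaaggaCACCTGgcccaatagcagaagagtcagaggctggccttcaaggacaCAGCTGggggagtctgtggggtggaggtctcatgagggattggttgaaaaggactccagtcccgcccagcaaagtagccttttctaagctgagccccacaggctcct
Ckb: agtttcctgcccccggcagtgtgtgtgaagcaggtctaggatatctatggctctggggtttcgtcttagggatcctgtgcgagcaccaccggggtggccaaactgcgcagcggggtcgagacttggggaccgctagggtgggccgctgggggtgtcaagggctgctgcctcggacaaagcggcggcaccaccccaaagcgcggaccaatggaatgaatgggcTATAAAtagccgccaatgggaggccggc

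Expression was given in TPM, a share of each library corrected for transcript length, so levels of different genes can be set side by side but a large change in other RNAs moves every value. The number of reads is not carried by TPM and is unknown here. Between 11690 and 14307 genes reached 1 TPM per library, and transcripts encoded by mitochondrial DNA took 21.6% to 42.0% of a library. MI vehicle replicate 3 stood apart: its genes lay a median of 0.74 log2 units above the sham vehicle mean, against −0.07 to 0.25 in the other 11 libraries. The 3 MI prednisone libraries also differed from the other 9 in the relation between transcript length and deviation from sham vehicle (Spearman rho across genes −0.41 to −0.27, against −0.12 to 0.24). Nuclear copies of mitochondrial DNA (7 genes) took 15.3% to 20.3% of the TPM in those 3 libraries and 9.32% to 14.6% in the other 9. The copies were picked because they share stretches of 31 bases with mitochondrial transcripts. TPM given to them may therefore come from mitochondrial RNA. Because of these differences between libraries, each change of the 7 genes is given on the deposited scale and after median-ratio rescaling. Rescaling divides each library by the median ratio of its genes to their geometric mean over all libraries. Cardiomyocyte markers (7 of 7 detected, summing to 22568 to 37823 TPM per library) were high in all 12 libraries, as the label says of heart muscle. Skeletal muscle markers summed to at most 22.5 TPM, with Myh1, Myh2, Myh4 and Tnnc2 under the filter.

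Across all 12 libraries the genes covered a wide range of levels. Mean TPM was 1439 for Ckm, 1055 for Ckmt2, 237 for Ak1, 49.2 for Slc6a8, 47.4 for Ak3, 33.8 for Ckb and 5.18 for Gamt. Ckm exceeded Ckmt2 within every library, and Ak1 lay below both and above all others in every library. The ranges of Slc6a8 (36.3 to 65.8), Ak3 (40.3 to 60.1) and Ckb (22.6 to 50.7) overlapped, so their order is within the spread of the samples. Gamt, at 3.60 to 8.46 TPM, was the lowest of the 7 in every library. The panels of TPM by library show each of these values.

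**Figure D1:**
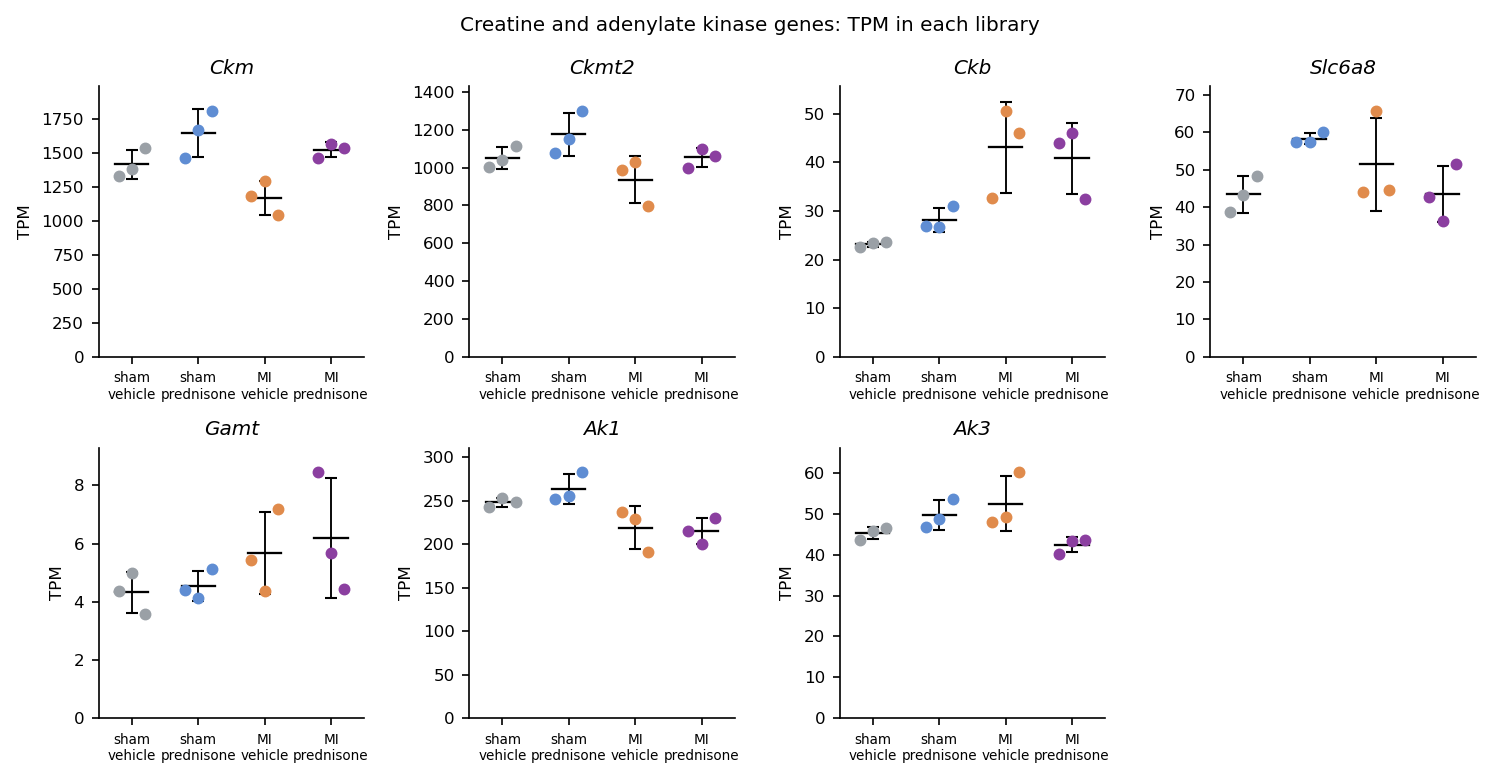
TPM of the 7 genes (vertical axes, from 0) in each of the 12 libraries, by group; points are mice, the horizontal line is the group mean and the bar its SD (n = 3). Ckm is lowest in MI vehicle (1042 to 1290 TPM), and Ckb is higher in all 6 MI libraries (32.5 to 50.7) than in all 6 sham libraries (22.6 to 30.9).

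Of the 7 genes, Ckb was called higher and none was called lower in MI against sham hearts on vehicle, where a call is an adjusted p under 0.05 in limma, corrected over all 13158 genes tested. Over all genes, 15.1% were called higher and 0.904% lower in that comparison, and the median change was 0.39 log2 units against 0.20 for the 7 genes. After rescaling no member was called (5 had an unadjusted p under 0.05), and 3.72% of all genes were called higher and 3.72% lower. In MI against sham hearts on prednisone no member was called by limma (3 had an unadjusted p under 0.05), while 2.73% of all genes were higher and 14.1% lower. Rescaled, that comparison called Ckb higher, beside 11.7% of all genes higher and 14.3% lower. In these and the following comparisons a group serves more than 1 contrast, so the contrasts are not independent.

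Prednisone against vehicle in MI hearts gave calls for 2 of the 7 genes, Ckm higher and Ak3 lower, beside 2.5% of all genes higher and 34.9% lower and a median over all genes of −0.41. Rescaling left Ckm as the single called gene, higher, with 14.6% of all genes higher and 14.2% lower. In sham hearts prednisone gave no call by limma among the 7 (1 had an unadjusted p under 0.05), and 0.0532% of all genes were higher and 0.0608% lower. The interaction, the prednisone effect in MI minus that in sham, also gave no call among the 7 (2 had an unadjusted p under 0.05), beside 0.54% of all genes higher and 20.7% lower. Rescaling gave no call among the 7 in these last comparisons (0 had an unadjusted p under 0.05 in sham and 1 in the interaction). The plot of log2 changes on both scales sets the 7 genes beside the median of all genes.

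**Figure D2:**
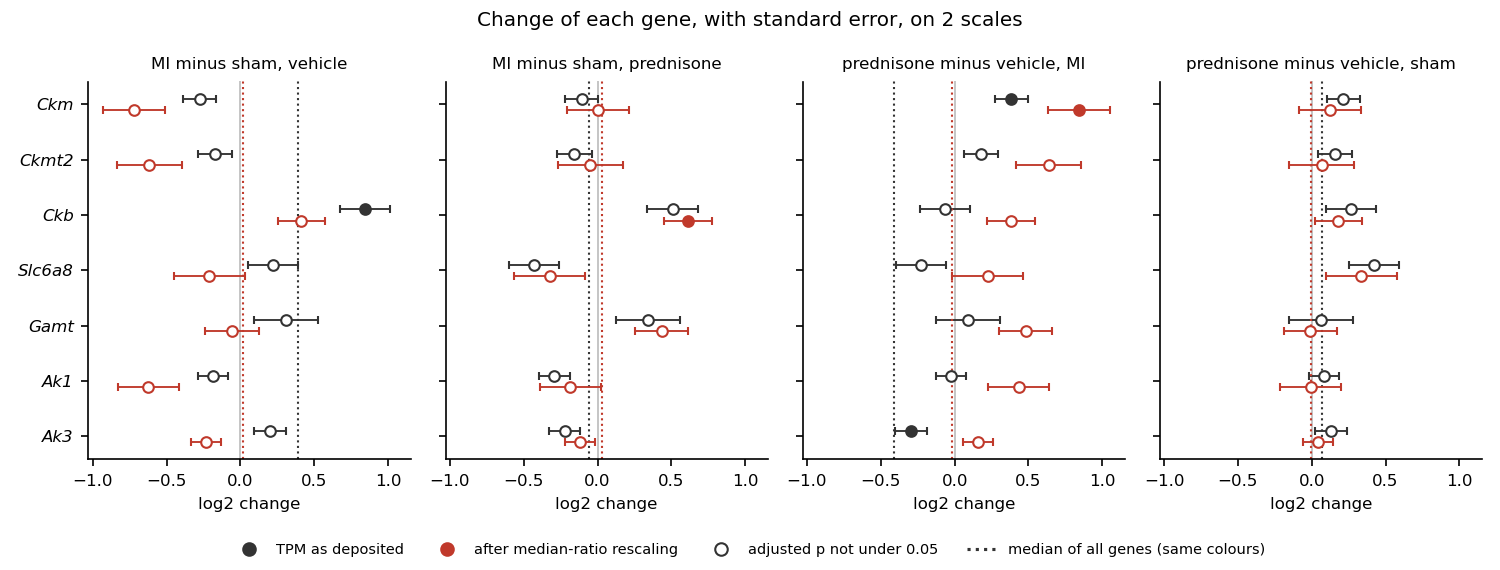
Log2 change of each gene (horizontal axis) with its standard error in 4 comparisons, from log2(TPM + 1) as deposited (black) and after median-ratio rescaling (red); filled points passed an adjusted p of 0.05 and dotted lines are the medians of all genes. Ckm is the one gene filled on both scales in the same comparison, prednisone against vehicle in MI (0.38 and 0.84).

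Ckm, the cytosolic muscle creatine kinase, was higher in infarcted hearts of prednisone-treated mice than in those of vehicle-treated mice. Its TPM was 1332, 1382 and 1533 in the sham vehicle mice and 1459, 1667 and 1811 in the sham prednisone mice. In the MI vehicle mice it was 1181, 1290 and 1042, and in the MI prednisone mice 1462, 1567 and 1539. All 3 MI vehicle libraries lay below the other 9, and the MI prednisone values fell within the range of the sham groups. The rise with prednisone in MI hearts was 0.38 log2 units (SE 0.11, adjusted p = 0.0215 by limma), a fold of 1.30, with no overlap between the groups. After rescaling it was 0.84 (SE 0.21, adjusted p = 0.0142). Without MI vehicle replicate 3 it was 0.30 (adjusted p = 0.0618), and without MI prednisone replicate 2 it was 0.36 (adjusted p = 0.0578), so the call rested on those libraries. With mitochondrial genes and their nuclear copies left out of the TPM it was 0.46 (SE 0.18, adjusted p = 0.0719). After a correction for transcript length it was 0.60 (SE 0.22, adjusted p = 0.0781). With only the 2 groups compared it was 0.38 (SE 0.14, adjusted p = 0.115), so the call was lost in these settings too.

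The corresponding difference between MI and sham on vehicle was −0.28 for Ckm (SE 0.11, adjusted p = 0.0919), and −0.72 after rescaling (adjusted p = 0.0604), neither past the threshold although the groups did not overlap. On prednisone, MI and sham differed by −0.11 (SE 0.11, adjusted p = 0.568). In sham hearts prednisone gave 0.21 (SE 0.11, adjusted p = 1), and the interaction was 0.17 (SE 0.16, adjusted p = 0.447), so the prednisone effect on Ckm was not shown to differ between MI and sham. Rescaled, the last 3 values were 0.00048, 0.12 and 0.72, with adjusted p-values of 0.999, 1 and 0.137. Cell type markers moved in the same libraries: the 7 cardiomyocyte markers summed to 22568 to 28246 TPM in MI vehicle and 32653 to 35352 in MI prednisone, with 3 called higher and none lower (4 and none after rescaling). The 7 fibroblast markers summed to 890 to 1150 TPM in MI vehicle and 305 to 516 in MI prednisone, with 7 called lower (6 after rescaling). The 3 atrial markers were called higher with prednisone in MI on both scales, summing to 1498 to 1923 TPM against 121 to 878. Over all genes, 2.5% were called higher and 34.9% lower in that comparison (14.6% and 14.2% after rescaling). The part of these shifts in the change of Ckm was not tested, and in bulk tissue fewer cells of a type and less RNA per cell cannot be told apart.

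Ckmt2, the mitochondrial creatine kinase of striated muscle, had the same order of group means as Ckm but gave no call. Its TPM was 1001, 1039 and 1116 in the vehicle sham mice, 1076, 1153 and 1301 in the treated sham mice, 987, 1028 and 795 in MI vehicle, and 998, 1099 and 1064 in MI prednisone. MI vehicle replicate 3 was the lowest of the 12, and on the deposited scale the groups overlapped in every comparison. The change with MI on vehicle was −0.17 (SE 0.12, adjusted p = 0.242), and that with prednisone in MI was 0.18 (SE 0.12, adjusted p = 0.237). Rescaled, these were −0.62 (adjusted p = 0.101) and 0.64 (SE 0.22, adjusted p = 0.0510). The remaining changes of Ckmt2 were −0.16 for MI on prednisone, 0.16 for prednisone in sham and 0.02 for the interaction, with adjusted p-values of 0.398, 1 and 0.942, and −0.05, 0.07 and 0.57 after rescaling, with adjusted p-values of 0.892, 1 and 0.254.

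Ckb, the brain-type creatine kinase, was higher after infarction. Its TPM was 22.6, 23.4 and 23.6 in the vehicle sham mice and 26.9, 26.6 and 30.9 in the treated sham mice. It was 32.6, 50.7 and 46.1 in MI vehicle and 44.0, 46.1 and 32.5 in MI prednisone, so that each of the 6 MI libraries exceeded each of the 6 sham libraries on the deposited scale. After rescaling MI vehicle replicate 3, at 27.9 TPM, lay below the 3 sham prednisone libraries (28.0 to 30.0), and the other 5 MI libraries stayed above all sham libraries. The rise on vehicle was 0.84 log2 units (SE 0.17, adjusted p = 0.0149 by limma), a fold of 1.79, and on prednisone the change was 0.51 (SE 0.17, adjusted p = 0.0641). Rescaling exchanged which of these passed: 0.41 (adjusted p = 0.128) on vehicle and 0.61 (adjusted p = 0.0196) on prednisone. The vehicle call was also lost without sham vehicle replicate 1 (0.83, adjusted p = 0.0655) or replicate 3 (0.86, adjusted p = 0.0689). It was lost too after the transcript-length correction (0.43, adjusted p = 0.120) and with only the 2 groups compared (0.84, adjusted p = 0.0991). On prednisone a call appeared without MI prednisone replicate 3 (0.66, adjusted p = 0.0194) and with only the 2 groups compared (0.51, adjusted p = 0.0477).

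Prednisone itself gave no call for Ckb: the change was −0.07 (SE 0.17, adjusted p = 0.770) in MI and 0.27 (SE 0.17, adjusted p = 1) in sham, where the groups did not overlap. The interaction was −0.33 (SE 0.24, adjusted p = 0.323). Rescaled, these were 0.38 (adjusted p = 0.0983), 0.18 (adjusted p = 1) and 0.20 (adjusted p = 0.603). Fibroblast and macrophage markers were called higher in MI on vehicle, 7 of 7 in each list on the deposited scale and 3 of 7 in each after rescaling. Of all genes, 15.1% and 3.72% were called higher on these scales. The fibroblast sum was 379 to 511 TPM in sham and 890 to 1150 in MI, and the macrophage sum was 271 to 388 in sham and 607 to 1333 in MI. In the MI prednisone hearts the fibroblast sum was 305 to 516 TPM, against 432 to 516 in treated sham hearts. The macrophage sum was 304 to 554 TPM, against 312 to 415. In that comparison limma called 0 of 7 markers in each list (1 fibroblast and 0 macrophage markers had an unadjusted p under 0.05). The part of these cells in the rise of Ckb on vehicle was not tested.

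Ratios between isoforms within a library do not move with what other RNAs take of it, and 3 ratios were tested for each factor, 6 tests in all, with exact two-sided permutation tests within the strata of the other factor. Ckb made up 1.67%, 1.66% and 1.52% of the summed Ckm and Ckb TPM in the vehicle sham mice and 1.81%, 1.57% and 1.68% in the treated sham mice. The share was 2.69%, 3.78% and 4.23% in MI vehicle and 2.92%, 2.86% and 2.07% in MI prednisone, above all sham values in 6 of 6 MI libraries. The Ckb to Ckm ratio was 1.85-fold higher in MI (log2 difference 0.89, 1.15 on vehicle and 0.63 on prednisone; exact permutation p = 0.005, the smallest that 400 regroupings allow, adjusted p = 0.03). Between prednisone and vehicle it differed by −0.19 (exact permutation p = 0.285, adjusted p = 0.428).

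The Ckmt2 to Ckm ratio was lower with prednisone by a small amount. It was 0.751, 0.752 and 0.728 in the vehicle sham mice, 0.738, 0.692 and 0.719 in the treated sham mice, 0.836, 0.797 and 0.763 in MI vehicle, and 0.683, 0.701 and 0.691 in MI prednisone. The MI groups did not overlap with each other, and the sham groups did. The log2 difference was −0.13, made of −0.06 in sham and −0.21 in MI (exact permutation p = 0.01, adjusted p = 0.03), while that of MI was 0.03 (exact permutation p = 0.46, adjusted p = 0.46). The adjusted p of the prednisone difference was above 0.05 without sham vehicle replicate 1 or 2, where the differences were −0.13 each. The Ak1 to Ak3 ratio differed by −0.23 with MI (exact permutation p = 0.03, adjusted p = 0.06), from 5.24 to 5.57 in the sham libraries to 4.94, 4.67 and 3.19 in MI vehicle and 5.35, 4.63 and 5.28 in MI prednisone, and by 0.11 with prednisone (exact permutation p = 0.405, adjusted p = 0.46). MI vehicle replicate 3 was the lowest.

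**Figure D3:**
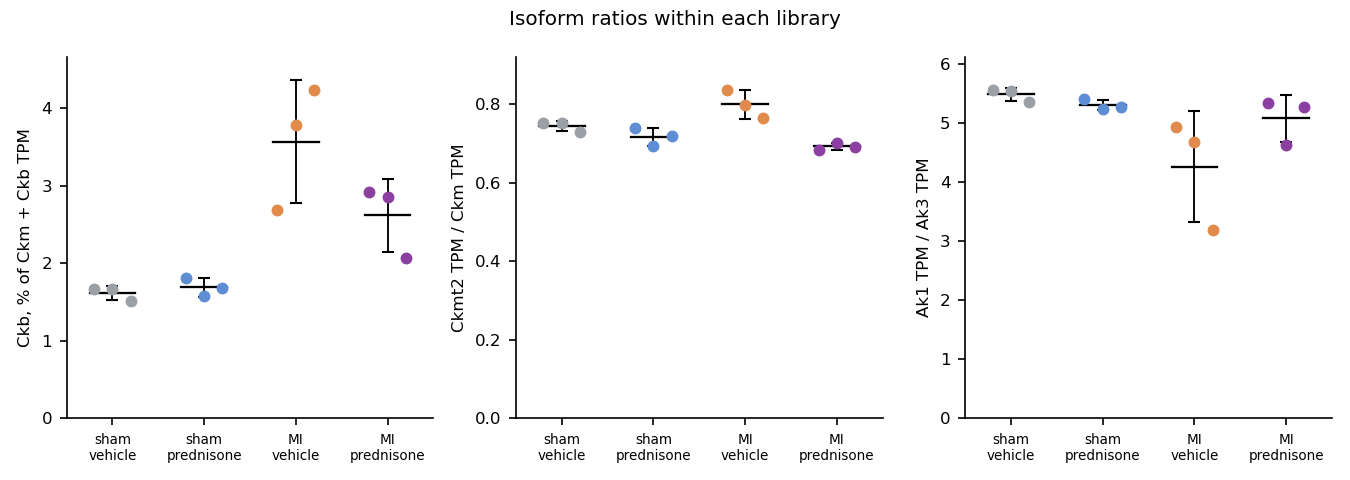
Isoform ratios within each library (vertical axes, from 0): Ckb as a percent of Ckm plus Ckb, Ckmt2 per Ckm and Ak1 per Ak3; points are mice, lines are means and bars are SD (n = 3). Ckb makes up 2.07% to 4.23% in the MI libraries and 1.52% to 1.81% in the sham libraries.

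Slc6a8, the creatine transporter, had no call as a gene. Its TPM was 38.6, 43.3 and 48.4 in the vehicle sham mice, 57.5, 57.5 and 60.0 in the treated sham mice, 44.0, 65.8 and 44.5 in MI vehicle, and 42.8, 36.3 and 51.4 in MI prednisone. The 3 sham prednisone libraries were close together and above the sham vehicle and MI prednisone groups, with MI vehicle replicate 2 the highest of all. The change with prednisone was 0.42 in sham (SE 0.17, unadjusted p = 0.0289, adjusted p = 1) and −0.23 in MI (SE 0.17, adjusted p = 0.303). The interaction was −0.65 (SE 0.24, adjusted p = 0.0726), and −0.11 after rescaling (adjusted p = 0.862). MI differed from sham by 0.22 on vehicle (SE 0.17, adjusted p = 0.304) and by −0.43 on prednisone (SE 0.17, adjusted p = 0.111). After rescaling prednisone gave 0.33 in sham and 0.22 in MI (adjusted p = 1 and 0.513), and MI gave −0.21 on vehicle and −0.32 on prednisone (adjusted p = 0.604 and 0.342).

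Gamt, which methylates guanidinoacetate to creatine, was low and gave no call. It stood at 4.39, 5.00 and 3.60 TPM in the vehicle sham mice, 4.41, 4.12 and 5.12 in the treated sham mice, 5.46, 4.38 and 7.18 in MI vehicle, and 8.46, 5.67 and 4.46 in MI prednisone. The MI groups were wider than the sham groups and overlapped them. Its changes with MI were 0.31 on vehicle (SE 0.22, adjusted p = 0.264) and 0.34 on prednisone (SE 0.22, adjusted p = 0.321), with 0.09 for prednisone in MI, 0.06 for prednisone in sham and 0.03 for the interaction (adjusted p = 0.753, 1 and 0.952). Rescaled, the same 5 changes were −0.057, 0.43, 0.48, −0.010 and 0.49, with adjusted p-values of 0.867, 0.0972, 0.0673, 1 and 0.230. Gatm, the enzyme of the preceding step of creatine synthesis, rose with MI on vehicle, from 1.48 ± 0.38 to 4.07 ± 1.65 TPM (SD, n = 3; log2 change 0.99, SE 0.22, adjusted p = 0.0197 by limma), and was lower with prednisone in MI at 1.39 ± 0.27 TPM (−1.04, SE 0.22, adjusted p = 0.00528). It belongs to a list described below, and it is named here after its values were seen, since its mean of 2.11 TPM is under the level set for naming. Rescaling took the first of these changes to 0.67 (adjusted p = 0.0877) and the second to −0.72 (adjusted p = 0.0365).

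Ak1, the cytosolic adenylate kinase, stood at 242, 253 and 249 TPM in the vehicle sham mice, 253, 255 and 283 in the treated sham mice, 237, 230 and 192 in MI vehicle, and 215, 200 and 230 in MI prednisone. All 6 MI libraries lay below all 6 sham libraries on the deposited scale. After rescaling MI prednisone replicate 3, at 264 TPM, lay above sham vehicle replicate 2 (252) and sham prednisone replicate 1 (262). No comparison was called on either scale: the change was −0.18 with MI on vehicle (SE 0.10, adjusted p = 0.175) and −0.29 with MI on prednisone (SE 0.10, adjusted p = 0.0740). Prednisone gave −0.02 in MI and 0.08 in sham, with adjusted p-values of 0.871 and 1, and the interaction was −0.11 (SE 0.14, adjusted p = 0.604). Rescaling took the MI change to −0.62 on vehicle (SE 0.21, adjusted p = 0.0832) and −0.18 on prednisone (adjusted p = 0.536). It took the prednisone change to 0.43 in MI (adjusted p = 0.136) and −0.0054 in sham (adjusted p = 1), and the interaction to 0.44 (adjusted p = 0.350).

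Ak3, the GTP-dependent enzyme of the matrix, was lower with prednisone in MI hearts on the deposited scale. Its TPM was 43.6, 45.7 and 46.4 in the vehicle sham mice, 46.7, 48.7 and 53.7 in the treated sham mice, 48.0, 49.1 and 60.1 in MI vehicle, and 40.3, 43.3 and 43.6 in MI prednisone. The MI prednisone libraries were the lowest, below MI vehicle without overlap and touching the bottom of sham vehicle. The change was −0.29 (SE 0.11, adjusted p = 0.0490 by limma), against the median of −0.41 over all genes. Rescaled, it was 0.16 (SE 0.10, adjusted p = 0.273), the opposite sign. Of the 6 fits that left out a mouse of these groups, the call held in the one without MI vehicle replicate 1 (adjusted p = 0.0266), and it was lost without MI vehicle replicate 2 (0.0551) or 3 (0.122) and without MI prednisone replicate 1 (0.144), 2 (0.0803) or 3 (0.0684). Ak3 differed by 0.20 with MI on vehicle (SE 0.11, adjusted p = 0.160), by −0.22 with MI on prednisone (adjusted p = 0.184), by 0.13 with prednisone in sham (adjusted p = 1) and by −0.42 in the interaction (SE 0.15, adjusted p = 0.0641). Rescaled, these 4 values were −0.23, −0.12, 0.04 and 0.11, with adjusted p-values of 0.171, 0.416, 1 and 0.645.

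At the level of transcripts, 18 rows of the 7 genes had a mean of at least 1 TPM. Limma, run on all 27769 transcript rows passing the filter, called 1 of the 18 higher and none lower in MI against sham on vehicle (2.84% of all rows were called in either direction). On prednisone it called 1 higher and 6 lower (22.3% of all rows). Prednisone gave 2 higher and 3 lower in MI (33% of all rows) and 1 higher and none lower in sham (0.054%), and the interaction 1 higher and 2 lower (18.7%). These counts include Slc6a8-202 (higher in MI) and Slc6a8-204 (the sham call). Each passed the filter only through the group where it was high, so their calls are descriptions. After rescaling both higher calls in MI stayed. The lower ones, Ak3-201, Slc6a8-201 and Slc6a8-203, were lost (adjusted p = 0.696, 0.113 and 0.171), as was the sham call (0.0575). Rescaling also removed the call in MI against sham on vehicle, Ckb-201 (adjusted p = 0.234). On prednisone that comparison lost Ak1-205 (0.0926), Ckm-202 and Ckm-203 (0.115 each) and gained Ckb-201 (0.0216). The interaction lost Slc6a8-201 (0.0953) and gained Ckm-201 (0.0407). Before rescaling, most of the called rows belonged to Slc6a8, Ckm and Ak1.

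Slc6a8-202, the decay-annotated transcript with the extra 9 junction bases shown above, was high in the MI prednisone hearts. It stood at 21.7, 21.4 and 14.0 TPM there and at no more than 2.21 TPM in the other 9 libraries, 2 of which list it at 0. Slc6a8-202 passed the filter on low values only through that group, reaching 1 TPM elsewhere in sham vehicle replicate 1 alone. Its limma values below are therefore a description of where it was high. As a share of the gene it made up 50.6%, 59.0% and 27.2% in MI prednisone and at most 5.72% elsewhere. On the log2(TPM + 1) scale it rose by 3.88 with prednisone in MI (SE 0.41, adjusted p = 0.000158 by limma), and it was 4.25 higher in MI than in sham on prednisone (SE 0.41, adjusted p = 9.82e-05). Rescaling gave 4.04 and 4.38, both called, and the interaction was 4.39 (SE 0.58, adjusted p = 0.00147). In the same libraries the summed level of the gene, given above, did not pass the test.

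The protein-coding transcripts moved the other way. Slc6a8-201 was at 16.5, 22.7 and 25.2 TPM in the vehicle sham mice, 32.9, 33.7 and 35.3 in the treated sham mice, 17.4, 30.8 and 23.8 in MI vehicle, and 8.51, 5.34 and 16.7 in MI prednisone. It fell by 1.25 log2 units with prednisone in MI (SE 0.32, adjusted p = 0.0136), and rescaling took this to −0.82 (adjusted p = 0.113). Its difference between MI and sham on prednisone was −1.77 (SE 0.32, adjusted p = 0.00327), called on both scales (−1.68 rescaled). Slc6a8-203, which lacks the 15 bases of exon 9, fell from 23.7, 30.1 and 19.8 TPM in MI vehicle to 10.8, 6.09 and 17.2 in MI prednisone (−1.13, SE 0.29, adjusted p = 0.0129; −0.70 rescaled, adjusted p = 0.171). MI prednisone replicate 3 kept the highest levels of both coding transcripts and the lowest of Slc6a8-202 in its group, and its length relation (rho −0.27) was the weakest of the 3 (−0.40 and −0.41 in the others). The part of transcript length, coverage and the larger share of nuclear copies of mitochondrial DNA in these transcript shifts was not tested.

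Slc6a8-204, another protein-coding form, appeared in the sham prednisone hearts, at 5.58, 5.82 and 2.10 TPM, against at most 0.0635 in the vehicle sham mice and at most 1.17 in MI vehicle. It is listed at 0 in all 3 MI prednisone libraries. Slc6a8-204 passed the filter only through the sham prednisone group, reaching 1 TPM elsewhere in MI vehicle replicate 1 alone, so its limma values are likewise a description. Its change with prednisone in sham was 2.34 (SE 0.34, adjusted p = 0.0488 by limma), and 2.37 after rescaling (adjusted p = 0.0575). Over all alternative settings this call was lost in 10 and kept in 1. Among the losses were the fits without sham prednisone replicate 1 or 2, or any 1 of the sham vehicle mice (adjusted p-values of 0.178 to 0.301). MI against sham on prednisone gave −2.37 (SE 0.34, adjusted p = 0.000940). Slc6a8-212, a retained-intron form, varied between 0.310 and 1.80 TPM with no call.

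**Figure D4:**
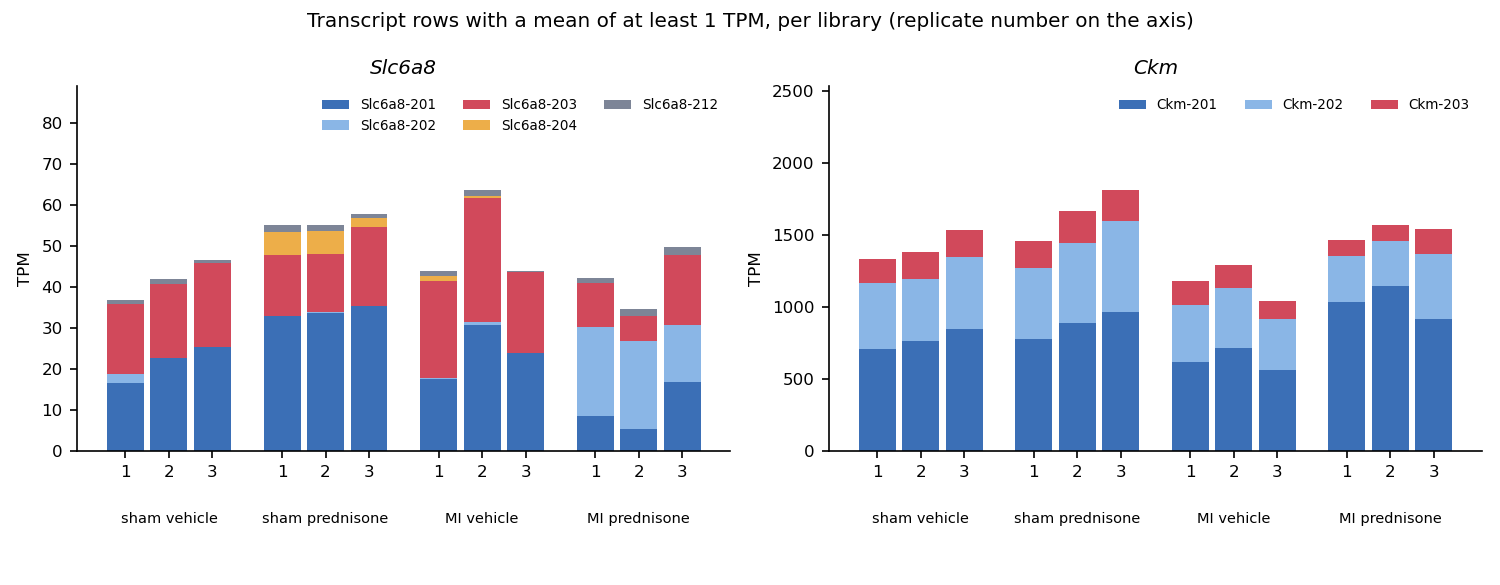
TPM (vertical axes, from 0) of the transcript rows of Slc6a8 and Ckm with a mean of at least 1 TPM, stacked for each library, with replicate numbers under the bars. Slc6a8-202 holds 14.0 to 21.7 TPM in the MI prednisone libraries and at most 2.21 elsewhere, and Ckm-201 is tallest in MI prednisone (918 to 1144 TPM).

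Among the Ckm transcripts, the one called with prednisone in MI was Ckm-201, the form that skips exon 2. It stood at 703, 761 and 847 TPM in the vehicle sham mice, 775, 884 and 966 in the treated sham mice, 617, 714 and 560 in MI vehicle, and 1036, 1144 and 918 in MI prednisone. Its log2 change with prednisone in MI was 0.71 (SE 0.13, adjusted p = 0.00265 by limma), and 1.17 after rescaling (adjusted p = 0.00335). Ckm-203, the long coding form, changed by −0.24 in the same comparison (SE 0.17, adjusted p = 0.300), and Ckm-202 by −0.13 (SE 0.15, adjusted p = 0.525). Rescaling turned both signs, to 0.22 for Ckm-203 (adjusted p = 0.563) and 0.33 for Ckm-202 (adjusted p = 0.336). Ckm-201 made up 52.3% to 55.3% of the gene in the other 9 libraries and 70.9%, 73.0% and 59.6% in MI prednisone, again with replicate 3 nearest to the rest. In MI against sham on prednisone, Ckm-202 fell by 0.65 (SE 0.15, adjusted p = 0.0102) and Ckm-203 fell by 0.70 (SE 0.17, adjusted p = 0.0125), and neither was called after rescaling (adjusted p = 0.115 for both).

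Ckm-201 ends 1257 bases before Ckm-203 and is the shorter transcript, at 1235 against 2742 bases. The part of transcript length in the larger share of Ckm-201 in MI prednisone was not tested. For the remaining genes a single transcript dominated in every group: Ak1-202 made up 89.6% to 95.7% of Ak1, Ak3-201 made up 78.9% to 88.7% of Ak3, and Ckmt2 and Ckb had a single row each. Ak3-201 followed its gene with prednisone in MI (−0.39, SE 0.12, adjusted p = 0.0295) and turned sign on rescaling (0.06). The minor coding forms Ak1-205 and Ak1-206 changed in MI against sham on prednisone by −1.15 (adjusted p = 0.0490) and −1.17 (adjusted p = 0.00876). Their group means went from 7.92 to 2.96 and from 7.58 to 2.85 TPM, while Ak1-202 changed by −0.24 (adjusted p = 0.128). The call of Ak1-205 was lost in each of the 6 fits without a mouse of these groups.

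Around these 7 genes, 4 lists of 45 other genes were examined, of which 39 passed the filter. They cover phosphotransfer and AMP sensing (28 genes), exchange of ATP, ADP and phosphate across the mitochondrial membranes (7), sarcomere anchors of creatine kinase (4) and ATP-using motors and pumps (6). In MI against sham on vehicle, 3 of 39 were called higher and 1 lower, with a median of 0.11 against 0.39 over all genes. Over all genes, 15.1% were called higher and 0.904% lower. After rescaling 1 of 39 was higher and 4 lower, beside 3.72% of all genes higher and 3.72% lower. The myosin heavy chain Myh7 rose by 2.52 (SE 0.27, adjusted p = 0.00407), from 36.4 ± 3.34 to 227 ± 106 TPM. Myh6, the adult form of the mouse heart, fell by 0.61 (SE 0.13, adjusted p = 0.0165), from 2938 ± 94.3 to 1941 ± 310 TPM. Besides Gatm, the other call was Ampd2, an AMP deaminase (0.71, adjusted p = 0.0402), named after its values were seen. Rescaling took Ampd2 to 0.36 (adjusted p = 0.153), no longer called.

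In MI against sham on prednisone, 1 of 39 was called higher and 11 lower, with a median of −0.15 against −0.06 over all genes. Over all genes, 2.73% were called higher and 14.1% lower. After rescaling 3 of 39 were higher and 8 lower, beside 11.7% of all genes higher and 14.3% lower. Myh7 rose by 1.81 (SE 0.27, adjusted p = 0.00224). The calcium pump Atp2a2 fell by 1.26 (SE 0.19, adjusted p = 0.00235), from 2936 ± 99.1 to 1274 ± 428 TPM. Prkaa2, the catalytic AMP-activated kinase subunit of muscle, fell by 1.17 (SE 0.21, adjusted p = 0.00440), and Ak4, a mitochondrial adenylate kinase, fell by 0.99 (adjusted p = 0.0105). Also lower were the AMP deaminase Ampd3 (−0.84) and the sodium pump subunit Atp1b1 (−0.75), with adjusted p-values of 0.00612 and 0.00560. These 5 falls and the rise of Myh7 were called on both scales.

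With prednisone in MI hearts, 1 of 39 was called higher and 10 lower, with a median of −0.28 against −0.41. Over all genes, 2.5% were called higher and 34.9% lower. The nucleoside diphosphate kinase Nme2 rose by 0.37 (SE 0.12, adjusted p = 0.0322), from 423 ± 34.0 to 548 ± 84.5 TPM, and by 0.82 after rescaling (adjusted p = 0.00802). Lower were Prkaa2 (−0.83, adjusted p = 0.0104), Atp1b1 (−0.81, 0.00220), the AMP-activated kinase subunit Prkab2 (−0.75, 0.00661), Ampd3 (−0.73, 0.00626), Atp2a2 (−0.59, 0.0329) and the outer-membrane channel Vdac1 (−0.47, 0.00565). None of these 6 falls passed after rescaling, which gave 7 higher and 2 lower of 39, beside 14.6% of all genes higher and 14.2% lower. Prednisone in sham hearts gave no call by limma among the 39 (2 had an unadjusted p under 0.05). In the interaction, 0 were higher and 10 lower, beside 0.54% of all genes higher and 20.7% lower. Among the 10 were Prkaa2 (−1.01), Atp1b1 (−0.97), Prkab2 (−0.84), Ampd3 (−0.81) and Vdac1 (−0.62). After rescaling 2 were higher and 0 lower, beside 674 higher and 649 lower of all 13158 genes. None of the 4 sarcomere anchors, Fhl2, Myom1, Myom2 and Myom3, was called by limma on either scale, and 2 of them had an unadjusted p under 0.05 in MI against sham on prednisone.

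Across the 12 libraries, on rescaled values, Ckm and Ckmt2 varied together (Pearson r = 0.98), and both followed Ak1 (0.91 and 0.95) and Ak3 (0.89 and 0.92). Ckb did not follow them (0.12 with Ckm and 0.08 with Ckmt2), and its closest member was Gamt (0.53). Among the 8115 genes averaging 5 TPM or more, those most like Ckm were Vegfb (0.993), the ATP/ADP carrier Slc25a4 (0.992) and Aes (0.992). Those most like Ckmt2 were Coq6 (0.993), Pmpcb (0.991) and Slc25a4 (0.991). The closest to Ckb were Atf5 (0.982), Rhoc (0.954) and Plekho1 (0.946). These are descriptions over 12 libraries of 4 groups, which share group means and the scaling of each library, and MI vehicle replicate 3 had the lowest rescaled values of Ckm (631 TPM, the next lowest being 1131) and Ckmt2 (481, the next lowest being 905).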

How the data were processed

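RNA of myocardium from 12 mice was measured by stranded mRNA sequencing, per the labels' protocols. The deposited values are TPM (length-corrected transcript shares) in 105129 transcript rows with a gene symbol each, every column summing to 1000000. The submitters' processing notes name Trimmomatic, HISAT2, kallisto and mm10, without versions or roles. Of the rows, 94.7% matched a versioned transcript of GENCODE M21 (GRCm38), from which coordinates and structures were taken. The one Ckb row carries another transcript version than that release, so its structure may differ. TPM holds no depth, so precision rests on 3 mice per group, which the labels describe as separate animals.

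Rows were summed by symbol, a gene was kept if 3 or more of the 12 libraries reached 1 TPM (13158 genes), and log2(TPM + 1) was fitted with limma 3.58.1 in R 4.3.3 (a mean per group, all 12 libraries, eBayes with trend). Fold changes on that scale understate those of low genes. P-values were adjusted by Benjamini-Hochberg over all genes, and each model script was tested on simulated data. Within-library ratios were tested by exact permutation, by listing all regroupings in Python 3.11.15 with numpy 2.4.6. Transcript rows were fitted in the same way. Medians of all genes lay at 0.39 (MI on vehicle) and −0.41 (prednisone in MI), and rescaling brought them to 0.02 and −0.02. The 7 members and the lists were chosen with earlier results of these data known. Named genes were the members, and from the 4 lists those called and averaging 5 TPM or more, at most 6 per direction. Some genes that this rule takes in are not reported here. Likeness names the 3 genes of highest correlation, and transcripts are those with a mean of at least 1 TPM. Same-numbered mice of different groups are different animals, and their deviations correlated at −0.58 to 0.14, so the numbers were not treated as pairs. Other settings are given in the closing section. The alternatives on transcript rows and lists were added after seeing the data.

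Further marker lists gave the following calls. Over all genes, 15.1% were called higher and 0.904% lower in MI on vehicle, and 2.5% higher and 34.9% lower with prednisone in MI. After rescaling these shares were 3.72% and 3.72%, and 14.6% and 14.2%. Endothelial markers (6) were called higher for 4 in MI on vehicle, and for prednisone in MI 1 was higher and 2 lower. After rescaling the endothelial counts were 0 in MI on vehicle (2 had an unadjusted p under 0.05 by limma), and 1 higher and 0 lower with prednisone in MI. Of 4 smooth muscle markers, 2 were higher in MI on vehicle and 2 lower with prednisone in MI, and after rescaling 0 were called by limma in both (1 and 0 had an unadjusted p under 0.05). The adipocyte (16.8 to 1560 TPM in sum), erythroid (26712 to 98114 TPM) and Schwann (4.12 to 23.6 TPM, Sox10 not tested) lists gave no call by limma in any comparison on the deposited scale, with 0 unadjusted p-values under 0.05. After rescaling this held for the adipocyte and erythroid lists, and 1 of 3 Schwann markers was called higher with prednisone in MI.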

Additional observations from a re-analysis of the deposited data

Results flagged for a closer look

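For 3 transcripts of the creatine transporter Slc6a8 the prednisone effect differed between MI and sham hearts by the interaction term of limma. For Slc6a8-202 the effect in MI minus that in sham was 4.39 log2 units (adjusted p = 0.00147), and 4.59 after rescaling (adjusted p = 0.00165). Slc6a8-201 gave −1.91 (adjusted p = 0.0178) and, after rescaling, −1.39 (adjusted p = 0.0953). Slc6a8-204 gave −2.94 (adjusted p = 0.00388) and −2.93 after rescaling (adjusted p = 0.00538), with the transcript listed at 0 in all 3 MI prednisone libraries. Slc6a8-202 and Slc6a8-204 passed the filter on low values only through the group where each was high, so these values describe that pattern.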

How the results depend on the processing

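Of the 525 alternative values of single genes, 451 kept their direction and side of the threshold, 18 lost a call, 10 gained one and 46 changed sign. Of 202 transcript values, 158 were kept, 43 lost their call and 1 changed sign. The counts of members called were kept, or in one case (the most abundant transcript, prednisone in MI) went from 2 to 3, in 53 of 75 settings. They went from 1 to 0 (MI on vehicle) and from 2 to 0 (prednisone in MI) with only the 2 groups compared or with a transcript-length correction, and prednisone in MI also to 0 without mitochondrial genes and their nuclear copies. Prednisone in MI gave 1 after rescaling or with a pseudocount of 0.1, and MI on vehicle gave 0 after rescaling. MI on prednisone went from 0 to 1 with rescaling, with 2 groups or with the most abundant transcript, which also gave 1 in the interaction. Without 1 mouse the counts were 0 to 1 (MI on vehicle), 0 to 2 (MI on prednisone), 0 to 2 (prednisone in MI) and 0 to 2 (interaction).

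Sign changes concerned values that were not called, except for Ak3 and Ak3-201 with prednisone in MI. After rescaling, MI on vehicle became −0.21 for Slc6a8, −0.057 for Gamt and −0.23 for Ak3, and MI on prednisone 0.00048 for Ckm. Prednisone in MI became 0.38 for Ckb, 0.22 for Slc6a8, 0.43 for Ak1, 0.16 for Ak3 and 0.062 for Ak3-201. Prednisone in sham became −0.010 for Gamt and −0.0054 for Ak1, and the interaction 0.20 for Ckb, 0.44 for Ak1 and 0.11 for Ak3. The length correction gave −0.20, −0.068 and −0.23 for Slc6a8, Gamt and Ak3 in MI on vehicle. It gave 0.20, 0.33, 0.35 and 0.15 for Ckb, Slc6a8, Ak1 and Ak3 with prednisone in MI, and 0.32 and 0.083 for Ak1 and Ak3 in the interaction. Without mitochondrial genes, Ak3 was −0.0094 in MI on vehicle, Ckb was 0.0090 and Ak1 0.055 with prednisone in MI, and Ak1 was 0.016 in the interaction. By most abundant transcript, Ckm was 0.24 in MI on prednisone, Ak1 0.028 with prednisone in MI and Gamt −0.094 in the interaction. Leaving out 1 mouse, prednisone in MI ranged from −0.25 to 0.086 for Ckb, −0.12 to 0.27 for Gamt and −0.12 to 0.035 for Ak1. Gamt ranged from −0.039 to 0.15 with prednisone in sham and from −0.19 to 0.21 in the interaction, where Ckmt2 ranged from −0.095 to 0.093. The cause of these changes was not tested.

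With the replicate block, the Ckb to Ckm difference of 0.89 with MI had an exact sign-flip p of 0.03125 (adjusted p = 0.0938), as did the Ckmt2 to Ckm difference of −0.13 with prednisone, 0.03125 being the smallest p that 6 pairs allow. The limma calls of Ckb, Ckm and Ak3 held with the block. By most abundant transcript, the Ckmt2 to Ckm ratio differed by −0.14 with MI and by −0.28 with prednisone, no longer past the threshold. Leaving out 1 mouse, the Ckmt2 to Ckm difference with prednisone ranged from −0.15 to −0.11 and the Ak1 to Ak3 difference with MI from −0.29 to −0.13. The latter passed the threshold without MI prednisone replicate 1 or 3. Over all genes, calls ranged across settings from 2 to 5631 (MI on vehicle), 1027 to 6204 (MI on prednisone), 808 to 9169 (prednisone in MI), 4 to 17 (prednisone in sham) and 267 to 5185 (interaction), against 2100, 2213, 4917, 15 and 2797.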
